A study of Glycine max with 6 samples.

Results

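Genes annotated to the making of ethylene or to the ethylene signalling pathway were followed in leaves of soybean (Glycine max). A gene was counted as an ethylene gene when the deposited table gave it the Gene Ontology (GO) term ethylene-activated signalling pathway or ethylene biosynthetic process, and when its counts summed to at least 60 over the 6 libraries. Of the 45967 genes in the table, 105 carried either term and 82 reached the minimum. Genes that also carried a wounding term or the term for regulation of jasmonate signalling were to be left out, and 0 of the 105 did. GO terms placed 11 genes in synthesis, 11 among receptors and negative regulators and 56 among transcription factors, and 4 genes fitted none of these roles. Close to the minimum, GLYMA_03G112800 with 65 counts and GLYMA_19G164100 with 69 were kept, and GLYMA_07G113800 and GLYMA_08G257300 with 59 counts each were not; the mean levels of these transcription factor genes ran from 0.0588 to 0.408 FPKM.

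Ethylene is a gaseous plant hormone. S-adenosylmethionine is turned into 1-aminocyclopropane-1-carboxylate (ACC) by ACC synthase, and ACC oxidase turns ACC into ethylene. In Arabidopsis the hormone binds receptors in the membrane of the endoplasmic reticulum, which hold the pathway off until ethylene reaches them; downstream of them the membrane protein EIN2, which has a domain like that of metal ion carriers, passes the signal on to EIN3-type transcription factors in the nucleus and through these to ERF-type factors. In leaves ethylene is known for its part in senescence, wounding and stress responses, among them responses to salt.

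All plants were wild-type HN95, a soybean cultivar, kept in potted peat soil and vermiculite that had received a saline-alkaline solution of sodium chloride, carbonate, bicarbonate and sulfate, so control and treated plants shared the stress. The treated group (MSN, 3 libraries) had its leaves sprayed with mesoporous silica nanoparticles at 20 mg/L, and the control group (3 libraries) was not labelled with that spray. RNA was taken from leaves 7 days after the spray. The treatment tag of the MSN libraries reads 20, 21 and 22 mg/L in turn, and they were taken as 1 group because their titles name a single treatment. What control leaves received instead, plant age, and whether replicates were separate plants or pools stayed unstated. The p-values set the difference between groups against the spread among libraries of a group. Whether that spread lies between plants or between pools is therefore not known.

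The libraries held 63981150 to 67923813 counts, and ribosomal RNA took 0.0934 to 0.126% of them in 5 libraries and 0.223% in control replicate 2. Whole leaves were used, and in such bulk samples fewer cells of a type and less RNA per cell cannot be told apart. Genes with photosynthesis or chlorophyll binding terms, which mark mesophyll, summed to 24990 to 25910 FPKM in control and 44720 to 45970 FPKM in MSN leaves (153 of 201 tested genes higher, 15 lower, 2 of 215 at 0 in each group), so the leaf label fits. Phloem and xylem genes summed to 104 to 105 FPKM in control and 114 to 123 FPKM in MSN (21 of 41 higher, 3 lower, 2 of 48 at 0 in control). Stomatal genes summed to 24.9 to 28.0 and 25.8 to 27.4 FPKM (4 of 16 higher, 1 lower, 6 of 30 at 0 in control and 1 in MSN). Genes with the nutrient reservoir term, looked at as a seed marker although the term does not name seed, summed to 1283 to 1315 and 2260 to 2334 FPKM. Of them 14 of 48 were higher and 12 lower, with 10 of 78 at 0 in control and 5 in MSN. Higher calls took 76.1% of tested photosynthesis genes, 51.2% of phloem and xylem genes, 25.0% of stomatal genes and 29.2% of nutrient reservoir genes. Lower calls took 7.46%, 7.32%, 6.25% and 25.0% of them in turn. Over all genes tested, 29.6% were higher and 29.7% lower. The part of these marker levels in the ethylene gene results was not tested.

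Most ethylene genes were lower in MSN leaves, in all 3 main roles. Of the 80 ethylene genes that could be tested, 52 were lower in MSN, 8 were higher and 20 did not pass (edgeR quasi-likelihood test, threshold 0.05 on p-values adjusted over all genes). Among all 39203 genes tested, 29.7% were called lower and 29.6% higher, 59.3% in all, so lower calls took 65.0% of the ethylene genes and higher calls 10.0%. The median log2 fold change was -0.68 over the ethylene genes and 0.006 over all genes tested. Falls of at least 1 on the log2 scale were called for 29 ethylene genes, where 7.01% of all genes had one, and rises of that size for 3, where 9.27% of all genes had one. Control and MSN libraries did not overlap in 63 of the 80, against 65.0% of all genes. Abundance bore on the share that was called: lower calls made up 82.6% of the 23 ethylene genes at a mean of 10 FPKM or more (43.5% of all tested genes at that level), 67.6% of the 34 genes from 1 to 10 FPKM (29.0%) and 43.5% of the 23 tested genes under 1 FPKM (13.5%). Of the tested ethylene genes, 5 had reached the filter on low counts in control libraries alone and so had to differ. These are GLYMA_03G112800, GLYMA_08G145300, GLYMA_10G007100, GLYMA_10G223200 and GLYMA_13G122500. They are 5 of the 10 lower genes under 1 FPKM, so the filter fixed part of the 43.5% at that level. They also stay in the 52 lower calls and in the 29 larger falls. How many such genes the shares over all genes hold was not counted.

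**Figure D1:**
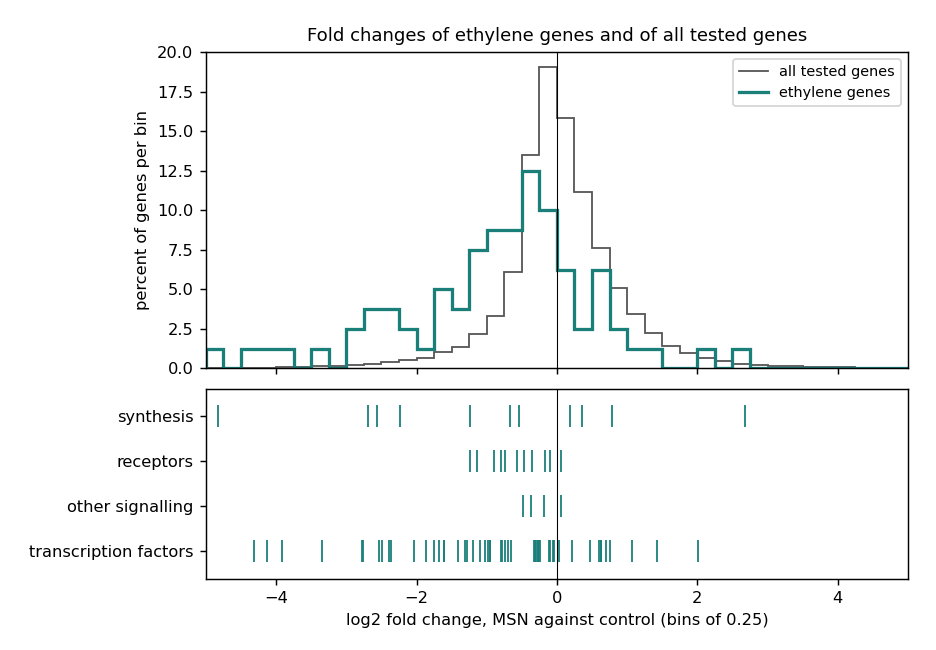
Log2 fold changes (MSN against control, bins of 0.25) of 80 tested ethylene genes and of all 39203 tested genes, as the percent of genes per bin, with 1 tick per ethylene gene below, by role. The ethylene genes have a median of -0.68 and all genes a median of 0.006; the axis ends at 5 on either side, which leaves out 1 ethylene gene below it and, over all genes, 147 below and 84 above.

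Summed over all 82 genes, the level went from 2094, 2029 and 2033 FPKM in control replicates 1 to 3 to 1203, 1150.0 and 1182 FPKM in MSN replicates 1 to 3. Each role's sum was lower in every MSN library than in every control library. Synthesis genes summed to 901 ± 19.4 FPKM in control and 477 ± 25.3 FPKM in MSN (SD, n = 3), and transcription factors to 940.5 ± 14.5 and 566 ± 6.404 FPKM. Receptor genes summed to 159 ± 2.72 and 92.9 ± 3.62 FPKM, and the other 4 signalling genes to 51.3 ± 0.941 and 42.7 ± 0.744 FPKM. These sums are descriptions, with no test. A few abundant genes carry most of each, except among the 4 other signalling genes, whose mean levels ran from 9.07 to 15.2 FPKM.

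**Figure D2:**
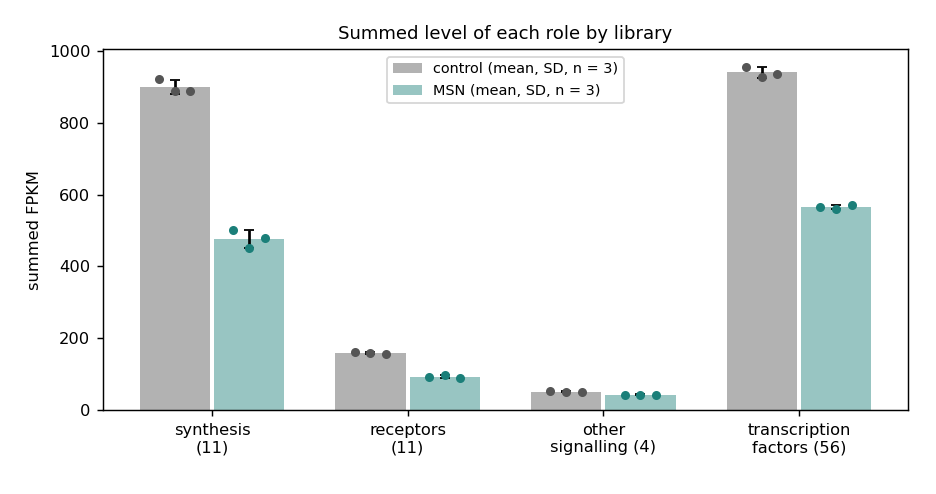
Summed FPKM of the ethylene genes of each role, with 1 point per library, bars at the mean of 3 libraries and error bars of 1 SD. The 3 MSN libraries lie below the 3 control libraries in every role, by the smallest margin for the 4 other signalling genes (41.8 to 43.2 against 50.5 to 52.3 FPKM).

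In ethylene synthesis, the most abundant ACC oxidase genes fell. ACS1, the single ACC synthase gene with the ethylene biosynthesis term, did not pass. GLYMA_05G108900 and GLYMA_17G158100, which carry the ACC synthase activity term without the biosynthesis term, were lower (log2 fold changes -0.99 and -2.13). The groups of GLYMA_05G108900 overlapped. ACC oxidase carries out the last step, and 10 of the 11 synthesis genes carry its activity term. Of these 10, 7 were lower (70.0%, against 29.7% of all genes tested), 2 were higher (20.0%, against 29.6%) and 1 did not pass. GLYMA_02G268000, on chromosome 2 at 45262242 to 45264179, was read at 466, 444 and 446 FPKM in control replicates 1 to 3 and 301, 269.9 and 285 FPKM in MSN replicates 1 to 3. All 3 MSN libraries lay below all 3 control libraries (log2 fold change -0.67 with SE 0.04, edgeR adjusted p = 1.42e-11). GLYMA_14G049500, on chromosome 14 at 3838137 to 3840136, stood at 438, 426 and 426 FPKM in control replicates 1 to 3 and 191, 173 and 186 FPKM in MSN replicates 1 to 3. It was the more strongly reduced of the pair, with no overlap between groups (log2 fold change -1.23 with SE 0.04, edgeR adjusted p = 2.94e-15). Together they made up 97.8 to 98.1% of summed ACC oxidase FPKM without the spray and 98.3 to 98.6% with it. The share of GLYMA_14G049500 was 47.5 to 47.9% in control and 38.2 to 38.9% in MSN libraries.

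The other 8 ACC oxidase genes stayed under 8 FPKM in every library and moved in both directions. GLYMA_08G050400 was read at 3.79, 4.24 and 3.63 FPKM in control replicates 1 to 3 and 0.191, 0.0437 and 0.1503 FPKM in MSN replicates 1 to 3. This was the steepest fall among the synthesis genes, and the groups lay far apart (log2 fold change -4.83 with SE 0.27, edgeR adjusted p = 2.56e-11). GLYMA_14G049200 had 7.34, 7.81 and 7.94 FPKM in control replicates 1 to 3 and 1.41, 1.43 and 1.07 FPKM in MSN replicates 1 to 3, again with MSN libraries well below (log2 fold change -2.56 with SE 0.14, edgeR adjusted p = 1.11e-11). Its neighbour GLYMA_14G049000 had 1.19, 1.13 and 0.917 FPKM in control replicates 1 to 3 and 0.256, 0.2101 and 0.224 FPKM in MSN replicates 1 to 3 (log2 fold change -2.23 with SE 0.15, edgeR adjusted p = 1.97e-10). The gene models overlap each other by 1774 bp on the same strand, and the handling of shared reads was not stated, so their separate values are uncertain. GLYMA_07G264200 had 0.471, 0.837 and 0.738 FPKM in control replicates 1 to 3 and 0.0296, 0.158 and 0.115 FPKM in MSN replicates 1 to 3 (log2 fold change -2.69 with SE 0.50), a low level with MSN below. GLYMA_09G008400 changed less, from 3.12 ± 0.441 to 2.15 ± 0.102 FPKM (SD, n = 3; log2 fold change -0.54 with SE 0.14, edgeR adjusted p = 0.00381).

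Among the weakly expressed ACC oxidase genes, 2 were higher in MSN. GLYMA_17G009800 had 0.242, 0.144 and 0.0406 FPKM in control replicates 1 to 3 and 1.197, 0.846 and 0.763 FPKM in MSN replicates 1 to 3. The MSN libraries were all above the controls, and it was the steepest rise of any ethylene gene (log2 fold change 2.68 with SE 0.45, edgeR adjusted p = 5.46e-05). GLYMA_15G112700 had 0.607, 0.504 and 0.554 FPKM in control replicates 1 to 3 and 1.195, 0.923 and 0.777 FPKM in MSN replicates 1 to 3, with separate groups and a smaller difference (log2 fold change 0.79 with SE 0.27, edgeR adjusted p = 0.0168). Its call was lost without control replicate 2 (log2 fold change 0.72, edgeR adjusted p = 0.0540), without MSN replicate 1 (0.61, edgeR adjusted p = 0.0977) and under quantile normalisation (0.61, limma adjusted p = 0.0531). GLYMA_02G268200, which lies 13260 bp from the abundant GLYMA_02G268000, had 1.27, 1.02 and 1.47 FPKM in control replicates 1 to 3 and 1.83, 1.53 and 1.49 FPKM in MSN replicates 1 to 3. Its groups did not overlap, but it did not pass (log2 fold change 0.36 with SE 0.20, edgeR adjusted p = 0.126). How reads of close copies in this family were shared out was not stated. ACS1 (GLYMA_05G211700), the ACC synthase gene that the table names, had 0.651, 0.619 and 0.283 FPKM in control replicates 1 to 3 and 0.473, 0.689 and 0.604 FPKM in MSN replicates 1 to 3; its groups overlapped (log2 fold change 0.18 with SE 0.30, edgeR adjusted p = 0.618).

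**Figure D3:**
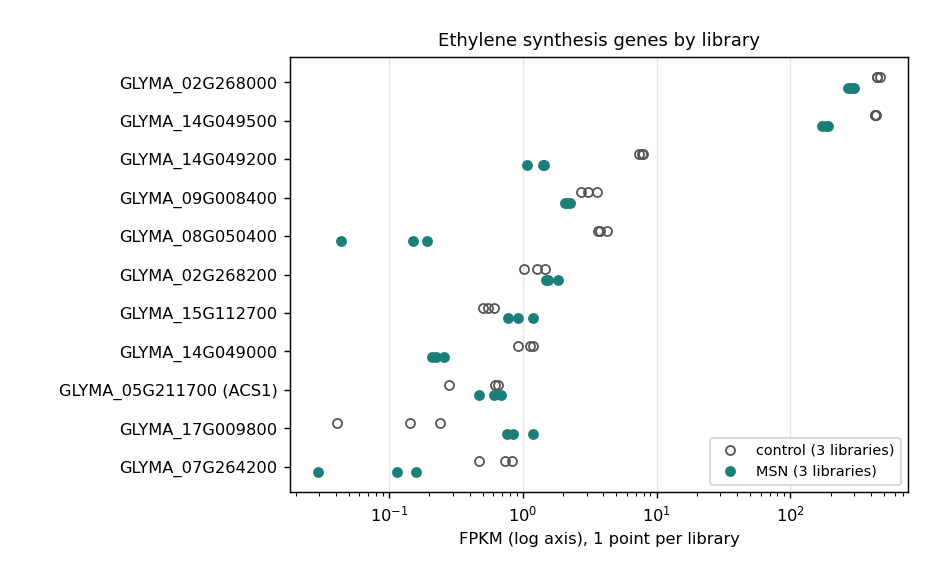
FPKM (log axis) of the 11 ethylene synthesis genes in each library, with open points for control and filled points for MSN. The top pair of ACC oxidase genes lies above 170 FPKM in every library, with MSN lower; among the genes under 8 FPKM, GLYMA_08G050400, GLYMA_14G049200, GLYMA_14G049000 and GLYMA_07G264200 are lower in MSN and GLYMA_17G009800 is higher.

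Receptor genes fell or did not pass, and 0 rose. All 11 genes of this role carry the ethylene binding and receptor activity terms together with negative regulation of ethylene signalling, so each is annotated as a receptor that restrains the pathway. Of them 9 were lower in MSN (81.8%, against 29.7% of all genes tested) and 2 did not pass. The 9 lower genes were those whose groups did not overlap (81.8%, against 65.0% of all genes tested). GLYMA_19G213300, on chromosome 19 at 46666253 to 46671097, was the most abundant at 85.5, 82.9 and 81.05 FPKM in control replicates 1 to 3 and 37.2, 39.3 and 36.9 FPKM in MSN replicates 1 to 3. Its MSN libraries were under 40 FPKM and its controls above 80 FPKM (log2 fold change -1.14 with SE 0.04, edgeR adjusted p = 1.21e-14). It made up 51.9 to 52.9% of summed receptor FPKM in control and 40.0 to 41.4% in MSN libraries. GLYMA_03G216700, the next most abundant, had 17.99, 18.4 and 18.2 FPKM in control replicates 1 to 3 and 10.6, 11.6 and 10.8 FPKM in MSN replicates 1 to 3 (log2 fold change -0.73 with SE 0.05, edgeR adjusted p = 3.14e-10). These 2 are the receptor genes without the histidine kinase activity term, and their sum was 101 ± 2.13 FPKM in control and 48.8 ± 1.81 FPKM in MSN.

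The 9 receptor genes with the histidine kinase term were lower in level and changed less in sum, from 57.8 ± 0.622 to 44.1 ± 2.25 FPKM; the difference between the kinds of receptor was not tested. Of these, 7 were lower. GLYMA_10G188500 had 10.3, 10.2 and 10.04 FPKM in control replicates 1 to 3 and 6.11, 6.11 and 5.34 FPKM in MSN replicates 1 to 3 (log2 fold change -0.80 with SE 0.06). GLYMA_20G202200 had 8.09, 7.76 and 7.85 FPKM in control replicates 1 to 3 and 4.03, 4.87 and 3.85 FPKM in MSN replicates 1 to 3 (log2 fold change -0.90 with SE 0.07). Both fell by more than 0.7 on the log2 scale with wide gaps between groups. GLYMA_20G221800 had 5.04, 5.102 and 5.61 FPKM in control replicates 1 to 3 and 3.57, 4.01 and 3.11 FPKM in MSN replicates 1 to 3 (log2 fold change -0.56 with SE 0.09). GLYMA_19G249100 had 3.51, 3.85 and 3.46 FPKM in control replicates 1 to 3 and 2.54, 2.54 and 2.77 FPKM in MSN replicates 1 to 3 (log2 fold change -0.47 with SE 0.10). GLYMA_12G241700 had 7.499, 7.21 and 6.84 FPKM in control replicates 1 to 3 and 5.52, 5.696 and 5.61 FPKM in MSN replicates 1 to 3 (log2 fold change -0.36 with SE 0.06). These 3 showed smaller differences, each with MSN below control in every library.

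Of the remaining receptor genes with that term, GLYMA_20G087000 was weakly expressed at 0.898, 1.11 and 0.624 FPKM in control replicates 1 to 3 and 0.386, 0.346 and 0.384 FPKM in MSN replicates 1 to 3, and MSN was lower (log2 fold change -1.23 with SE 0.26, edgeR adjusted p = 0.000449). GLYMA_09G002600 had 7.73, 7.89 and 7.804 FPKM in control replicates 1 to 3 and 7.27, 6.91 and 6.76 FPKM in MSN replicates 1 to 3, the smallest called difference of the role (log2 fold change -0.17 with SE 0.05, edgeR adjusted p = 0.00509). GLYMA_10G167300 had 8.19, 8.18 and 7.12 FPKM in control replicates 1 to 3 and 7.56, 7.55 and 6.92 FPKM in MSN replicates 1 to 3 and did not pass (log2 fold change -0.10 with SE 0.07, edgeR adjusted p = 0.226). GLYMA_03G251700 had 7.03, 6.78 and 7.75 FPKM in control replicates 1 to 3 and 8.26, 7.52 and 6.78 FPKM in MSN replicates 1 to 3 and did not pass either (log2 fold change 0.06 with SE 0.07, edgeR adjusted p = 0.501). In both the groups overlapped, and their log2 differences lay within 2 SE of 0.

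**Figure D4:**
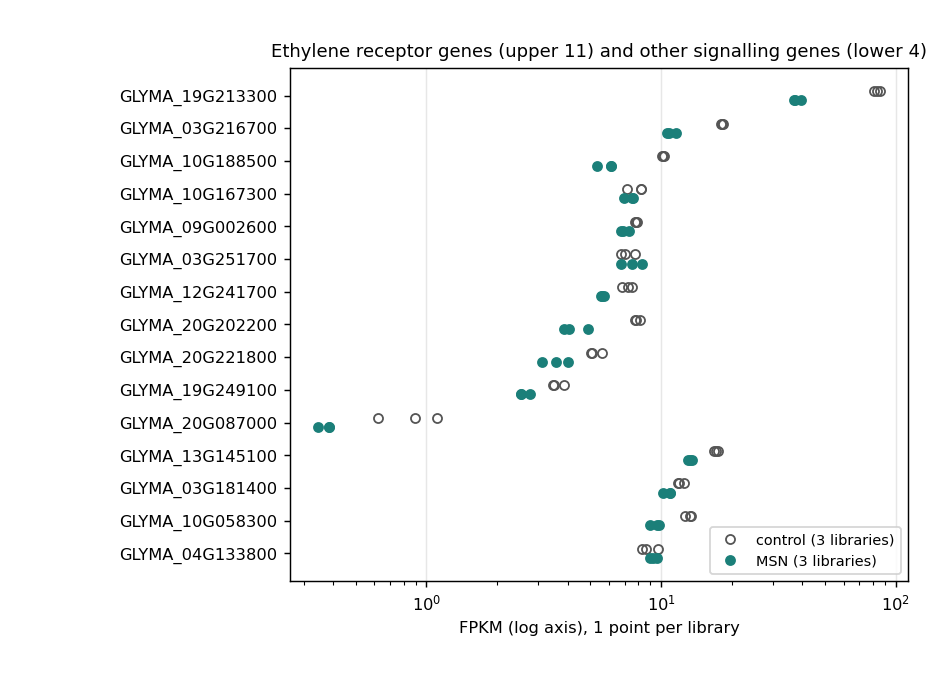
FPKM (log axis) in each library of the 11 ethylene receptor genes and of the 4 other signalling genes, with open points for control and filled points for MSN. MSN points lie left of control points for 9 receptor genes, with the widest gap in absolute level for GLYMA_19G213300, and overlap for GLYMA_10G167300 and GLYMA_03G251700.

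The 4 remaining signalling genes differed little between groups. A group of 3 carries both the ethylene signalling term and metal ion transport terms, and the table gives these genes no name. GLYMA_13G145100 had 17.4, 17.1 and 16.9 FPKM in control replicates 1 to 3 and 13.3, 13.5 and 13.1 FPKM in MSN replicates 1 to 3 (log2 fold change -0.37 with SE 0.04, edgeR adjusted p = 1.48e-07). GLYMA_10G058300 had 12.7, 13.3 and 13.5 FPKM in control replicates 1 to 3 and 9.61, 9.805 and 8.95 FPKM in MSN replicates 1 to 3 (log2 fold change -0.48 with SE 0.05, edgeR adjusted p = 4.42e-08). GLYMA_03G181400 had 12.6, 11.9 and 11.8 FPKM in control replicates 1 to 3 and 10.9, 10.9 and 10.2 FPKM in MSN replicates 1 to 3 (log2 fold change -0.19 with SE 0.04, edgeR adjusted p = 0.00163). Each was lower in all MSN libraries, by less than 0.5 on the log2 scale. GLYMA_04G133800, described in the table as THO complex subunit 1, a part of the machinery that exports messenger RNA, had 9.69, 8.63 and 8.31 FPKM in control replicates 1 to 3 and 9.23, 8.99 and 9.57 FPKM in MSN replicates 1 to 3 and did not pass (log2 fold change 0.06 with SE 0.07).

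Transcription factors formed the largest role, with 33 of 54 tested genes lower in MSN, 6 higher and 15 that did not pass. GLYMA_18G018400 and GLYMA_19G164100 were too low to test. Lower calls took 61.1% of the role and higher calls 11.1%, against 29.7% and 29.6% of all genes tested. The median log2 fold change of the transcription factors was -0.79. The table gives a description for only 2 of them, both named after Arabidopsis proteins, and neither passed. ABR1 (GLYMA_06G148400) had 0.121, 0.3501 and 0.1897 FPKM in control replicates 1 to 3 and 0.0575, 0.106 and 0.103 FPKM in MSN replicates 1 to 3 (log2 fold change -1.30 with SE 0.60, edgeR adjusted p = 0.0701); it passed with counts divided by 4 (edgeR adjusted p = 0.0465), under quantile normalisation (limma adjusted p = 0.0340) and without control replicate 1 (edgeR adjusted p = 0.0384). ERF071 (GLYMA_19G213100), whose Arabidopsis namesake is a hypoxia-responsive factor, had 1.505, 1.19 and 1.48 FPKM in control replicates 1 to 3 and 1.14, 1.92 and 1.17 FPKM in MSN replicates 1 to 3 with overlapping groups (log2 fold change 0.02 with SE 0.25).

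A subset of 9 transcription factor genes, set apart after annotation and values were seen, also carries the term cellular response to iron ion. Of its 8 tested genes, 6 were lower in MSN (75.0%, against 29.7% of all genes tested), 0 were higher and 2 did not pass. GLYMA_13G076700, on chromosome 13 at 18122954 to 18126172, had 79.7, 78.8 and 77.3 FPKM in control replicates 1 to 3 and 44.6, 46.6 and 45.9 FPKM in MSN replicates 1 to 3 (log2 fold change -0.79 with SE 0.04, edgeR adjusted p = 8.16e-13). GLYMA_20G051500, on chromosome 20 at 11509210 to 11512726, had 73.04, 75.99 and 73.2 FPKM in control replicates 1 to 3 and 36.5, 39.98 and 36.5 FPKM in MSN replicates 1 to 3 (log2 fold change -0.98 with SE 0.04, edgeR adjusted p = 2.05e-13). GLYMA_14G041500, on chromosome 14 at 3127834 to 3131281, had 56.9, 56.5 and 58.3 FPKM in control replicates 1 to 3 and 23.5, 24.1 and 22.9 FPKM in MSN replicates 1 to 3 (log2 fold change -1.29 with SE 0.04, edgeR adjusted p = 2.23e-15). The last of these was the most reduced of the subset, and in all 3 the groups lay far apart. The subset as a whole summed to 301, 305 and 300.1 FPKM in control libraries and 164, 171 and 166 FPKM in MSN libraries.

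A further 3 genes of that subset, named after their values were seen, were lower as well. GLYMA_02G274600 went from 42.3 ± 0.719 to 26.9 ± 0.587 FPKM, GLYMA_13G076800 from 29.3 ± 0.751 to 15.2 ± 0.839 FPKM and GLYMA_13G342500 from 8.77 ± 0.288 to 7.01 ± 0.269 FPKM (SD, n = 3), with log2 fold changes of -0.66, -0.95 and -0.33. GLYMA_15G031800 had overlapping groups at 10.6, 11.96 and 12.03 FPKM in control replicates 1 to 3 and 11.03, 10.4 and 10.8 FPKM in MSN replicates 1 to 3 and did not pass (log2 fold change -0.10 with SE 0.06, edgeR adjusted p = 0.151), but did without control replicate 1 (edgeR adjusted p = 0.0365). GLYMA_08G137800, under 0.2 FPKM and overlapped by a gene on the other strand, did not pass (log2 fold change 0.63 with SE 0.32), but did without MSN replicate 2 (edgeR adjusted p = 0.0173).

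Another subset of 8 transcription factor genes, chosen in the same way, lies in the KEGG plant hormone pathway without the iron term. Of its 7 tested genes, 6 were lower (85.7%, against 29.7% of all genes tested) and 1 did not pass. GLYMA_19G248900 had 4.22, 4.51 and 4.41 FPKM in control replicates 1 to 3 and 0.415, 0.426 and 0.395 FPKM in MSN replicates 1 to 3, a steep drop (log2 fold change -3.35 with SE 0.20, edgeR adjusted p = 6.98e-11). It lies 10103 bp from the receptor gene GLYMA_19G249100. GLYMA_10G007000, with 9.95, 8.29 and 8.24 FPKM in control replicates 1 to 3 and 2.34, 2.48 and 3.06 FPKM in MSN replicates 1 to 3, was the next most reduced (log2 fold change -1.75 with SE 0.14). GLYMA_10G036700 (-1.03), GLYMA_13G123100 (-0.95) and GLYMA_10G186800 (-0.70) were lower by the log2 fold changes in parentheses. GLYMA_20G203700 passed narrowly (log2 fold change -0.27 with SE 0.10, edgeR adjusted p = 0.0262) and lost its call without control replicate 1 (edgeR adjusted p = 0.0826), control replicate 3 (0.0874), MSN replicate 2 (0.0636) or MSN replicate 3 (0.0627). GLYMA_02G006200 did not pass (log2 fold change 0.21 with SE 0.37).

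The other 39 transcription factor genes included the most abundant and the most changed, with 21 lower, 6 higher and 12 that did not pass. Lower calls took 53.8% of them and higher calls 15.4%, against 29.7% and 29.6% of all genes tested. GLYMA_16G012600, on chromosome 16 at 1082595 to 1086315, had 170.1, 151 and 156 FPKM in control replicates 1 to 3 and 52.3, 50.7 and 53.4 FPKM in MSN replicates 1 to 3. Every MSN library was far below every control library (log2 fold change -1.61 with SE 0.04, edgeR adjusted p = 9.55e-16). GLYMA_07G044300, on chromosome 7 at 3689698 to 3693217, began at a like level with 170.0, 164 and 163 FPKM in control replicates 1 to 3 and 135, 130.3 and 138 FPKM in MSN replicates 1 to 3 and changed much less (log2 fold change -0.30 with SE 0.04, edgeR adjusted p = 6.27e-07). GLYMA_03G263700 had 74.7, 73.04 and 70.9 FPKM in control replicates 1 to 3 and 69.6, 63.7 and 69.1 FPKM in MSN replicates 1 to 3, a small and unstable difference (log2 fold change -0.12 with SE 0.04, edgeR adjusted p = 0.0262). Its call was lost without control replicate 1 (edgeR adjusted p = 0.0980), without MSN replicate 2 (edgeR adjusted p = 0.152) and under quantile normalisation (limma adjusted p = 0.205). GLYMA_05G186700, on chromosome 5 at 37324378 to 37326512, had 35.1, 37.7 and 37.3 FPKM in control replicates 1 to 3 and 5.53, 5.13 and 5.47 FPKM in MSN replicates 1 to 3. It combined a high level with a steep fall, and no pair of libraries from different groups came near each other (log2 fold change -2.77 with SE 0.06, edgeR adjusted p = 1.64e-17).

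Genes with the steepest falls had lower levels. GLYMA_20G168500 had 2.21, 1.86 and 2.63 FPKM in control replicates 1 to 3 and 0.157, 0.0931 and 0.0701 FPKM in MSN replicates 1 to 3 (log2 fold change -4.31 with SE 0.25, edgeR adjusted p = 3.36e-11). GLYMA_02G066200 had 8.305, 7.03 and 8.36 FPKM in control replicates 1 to 3 and 0.392, 0.499 and 0.452 FPKM in MSN replicates 1 to 3 (log2 fold change -4.12 with SE 0.16, edgeR adjusted p = 9.28e-14). GLYMA_08G145300 had 0.532, 1.01 and 1.11 FPKM in control replicates 1 to 3 and 0.0385, 0.0347 and 0.0884 FPKM in MSN replicates 1 to 3 (log2 fold change -3.92 with SE 0.48, edgeR adjusted p = 1.17e-06). In GLYMA_20G168500 and GLYMA_02G066200 every MSN library lay far below every control library. GLYMA_08G145300 and GLYMA_10G007100 had reached the count filter in control libraries alone, so their direction and lack of overlap were fixed by the filter. GLYMA_10G007100 had 1.11, 1.61 and 1.03 FPKM in control replicates 1 to 3 and 0 counts in all MSN libraries, where controls held 237 counts. Taking 12 counts over a group as the most that a count of 0 allows, it was at least 19.5-fold lower in MSN. Further lower genes at 10 FPKM or more in control, named after their values were seen, were GLYMA_02G080200 (24.3 ± 0.527 to 7.98 ± 0.147 FPKM), GLYMA_09G041500 (20.8 ± 0.644 to 6.504 ± 0.252 FPKM) and GLYMA_15G152000 (31.3 ± 2.13 to 13.6 ± 0.464 FPKM; SD over 3 libraries), with log2 fold changes of -1.61, -1.68 and -1.20. GLYMA_19G262700 passed with overlapping groups (log2 fold change -0.24 with SE 0.10, edgeR adjusted p = 0.0424) and lost its call without control replicate 2, control replicate 3, MSN replicate 1 or MSN replicate 3 (edgeR adjusted p from 0.0879 to 0.167) and with no filter on low counts (edgeR adjusted p = 0.0558). The other 9 lower genes stayed under 5 FPKM, with log2 fold changes from -2.76 (GLYMA_03G111700) to -1.10 (GLYMA_16G147500). GLYMA_16G164800, the most abundant of them in control, went from 4.27 ± 0.221 to 0.757 ± 0.128 FPKM (SD, n = 3). Of these, GLYMA_03G112800, with 65 counts in all, lost its call without control replicate 3, MSN replicate 1 or MSN replicate 2 (edgeR adjusted p = 0.0604, 0.0773 and 0.0653) and with no filter on low counts (edgeR adjusted p = 0.0808), and GLYMA_13G122500 without MSN replicate 1 or MSN replicate 3 (0.0618 and 0.0516). GLYMA_03G112800, GLYMA_13G122500 and GLYMA_10G223200 had also reached the count filter in control libraries alone, so their direction was fixed by it. The 12 genes that did not pass ran from -1.30 (ABR1) to 1.07 (GLYMA_20G203500, which passed on FPKM with limma, adjusted p = 0.0339 and 0.0392 with pseudocounts of 1 and 0.1), and the most abundant of them, GLYMA_15G079100, was at 10.8 ± 0.474 and 10.4 ± 0.331 FPKM.

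The 6 transcription factor genes that rose, all among these 39 and named after their values were seen, went against the majority. GLYMA_05G063600 had 14.7, 14.8 and 17.1 FPKM in control replicates 1 to 3 and 25.6, 27.3 and 25.9 FPKM in MSN replicates 1 to 3 (log2 fold change 0.75 with SE 0.06, edgeR adjusted p = 5.28e-09). GLYMA_17G145400 had 14.7, 14.1 and 14.6 FPKM in control replicates 1 to 3 and 21.8, 20.97 and 24.4 FPKM in MSN replicates 1 to 3 (log2 fold change 0.63 with SE 0.07, edgeR adjusted p = 1.45e-07). These were the only called rises above 10 FPKM among the ethylene genes tested. GLYMA_01G206600 had 2.61, 2.26 and 2.33 FPKM in control replicates 1 to 3 and 7.26, 5.28 and 6.99 FPKM in MSN replicates 1 to 3 (log2 fold change 1.43 with SE 0.14, edgeR adjusted p = 5.04e-08). GLYMA_10G016500 had 0.191, 0.144 and 0.0817 FPKM in control replicates 1 to 3 and 0.617, 0.4597 and 0.601 FPKM in MSN replicates 1 to 3 (log2 fold change 2.01 with SE 0.41, edgeR adjusted p = 0.000366), the steepest rise of the role at a low level. The rises of GLYMA_11G036500 and GLYMA_02G016100 were 0.70 and 0.62 on the log2 scale. In all 6 every MSN library was above every control library.

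**Figure D5:**
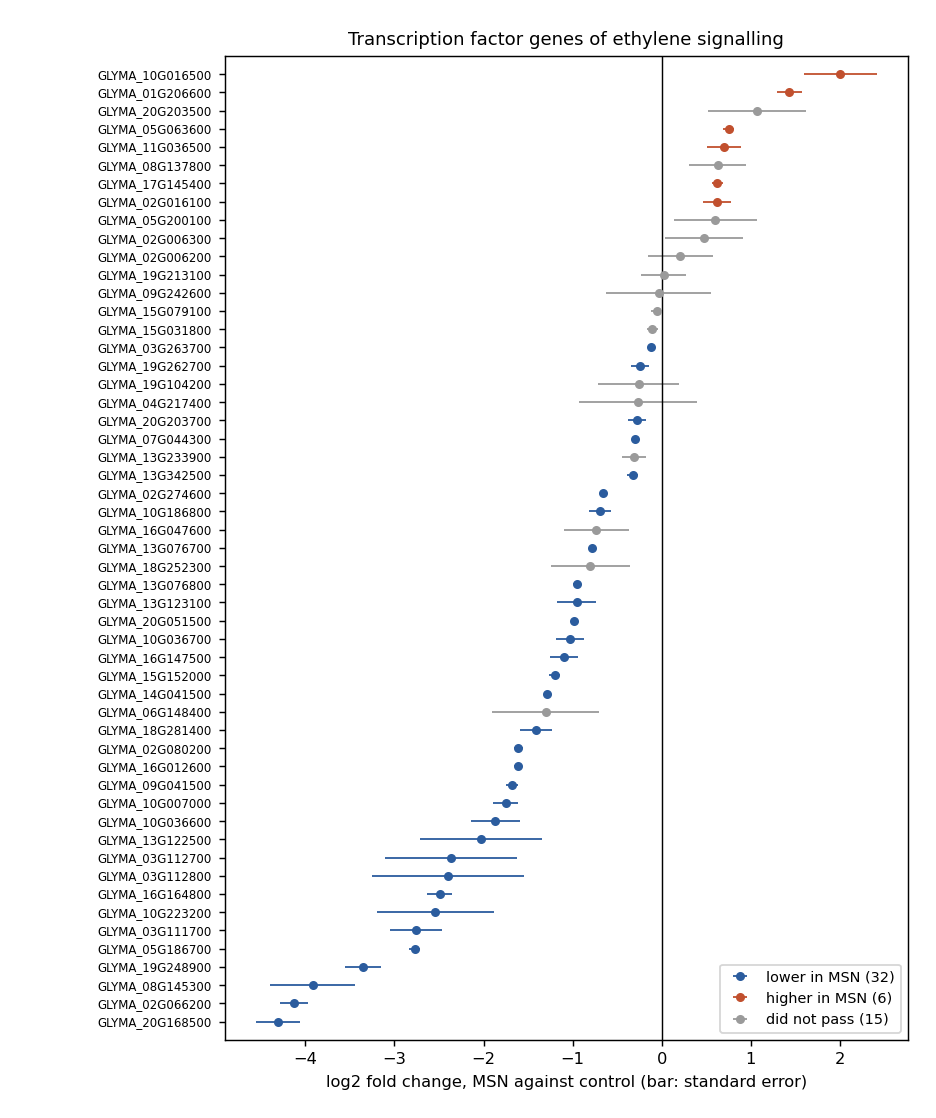
Log2 fold change (MSN against control, bars of 1 SE) of 53 tested transcription factor genes of ethylene signalling, coloured by the edgeR call. GLYMA_10G007100, with 0 counts in MSN, is not drawn; 32 of the drawn genes are lower in MSN, 6 higher and 15 did not pass.

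Ethylene genes often lay beside one another. Within 100000 bp, 30 adjacent pairs were found among the 105 genes that carry either term, 28 of them within 1 role. Both genes were called in 7 pairs, and in all 7 both were lower. In 2 of them, those with GLYMA_10G007100 and GLYMA_03G112800, that gene had reached the count filter in control libraries alone, so its direction was fixed by the filter, which leaves 5 pairs. The 2 pairs set aside were GLYMA_10G007000 with GLYMA_10G007100 (12369 bp apart) and GLYMA_03G112700 with GLYMA_03G112800 (2924 bp). The 5 others included GLYMA_14G049000 with GLYMA_14G049200 (the overlapping models above) and GLYMA_14G049200 with GLYMA_14G049500 (28422 bp). Also among the 5 were GLYMA_13G076700 with GLYMA_13G076800 (23618 bp), GLYMA_10G036600 with GLYMA_10G036700 (9071 bp) and GLYMA_19G248900 with the receptor gene GLYMA_19G249100. Most of the other pairs held a gene that was not tested, so their directions cannot be compared. Beside the lower receptor gene GLYMA_19G213300, ERF071 at a distance of 7480 bp did not pass. Beside the lower GLYMA_02G268000, GLYMA_02G268200 did not pass. In the pair of GLYMA_02G006200 and GLYMA_02G006300, neither gene passed. Since 52 of the tested ethylene genes were called lower and only 8 higher, pairs of called genes would mostly be lower in both. How often called neighbours share a direction over all genes was not counted. Neighbours of the same family can also share reads.

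Most genes of S-adenosylmethionine synthesis were lower in MSN as well. This step supplies the precursor of ACC, and it had 8 of 9 tested genes lower (88.9%) and 0 higher. Among the 8, GLYMA_02G008700 was at 0.227 to 0.446 FPKM in control libraries and 0, 0 and 0.0688 FPKM in MSN replicates 1 to 3. At these levels it could reach the filter on low counts only through its control libraries, so the filter fixed its direction. The list holds 11 genes, with a median log2 fold change of -0.60. Its most abundant gene, GLYMA_15G190500, went from 197 ± 7.22 to 132 ± 1.597 FPKM (SD, n = 3; log2 fold change -0.58 with SE 0.03, edgeR adjusted p = 3.18e-11), and the next, GLYMA_17G039100, from 82.1 ± 0.631 to 54.1 ± 2.599 FPKM (SD, n = 3; log2 fold change -0.60 with SE 0.04, edgeR adjusted p = 1.88e-10). Methionine salvage, which recycles the by-product of ACC synthesis, had 6 of 11 tested genes lower (54.5%) and 1 higher (9.09%), with a median of -0.22. It was led in abundance by GLYMA_10G244100 (-0.46) and GLYMA_20G150200 (-0.62). KEGG cysteine and methionine metabolism without the ethylene genes had 51 of 113 lower (45.1%) and 29 higher (25.7%), with a median of -0.12. It was led by the same GLYMA_15G190500 and by GLYMA_08G108800 (-0.41). These lists share genes with each other. Over all genes tested, 29.7% were lower and 29.6% higher. At a mean of 10 FPKM or more, 43.5% of all genes tested were lower and 32.8% higher.

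The term response to ethylene, without the ethylene genes, had 9 of 28 tested genes lower (32.1%, against 29.7% of all genes). A further 5 were higher (17.9%, against 29.6%), and the median was -0.09. This list also holds the 4 genes annotated to regulation of ethylene signalling that are given below, 3 of them lower. Its most abundant gene, GLYMA_05G062300, did not pass (log2 fold change -0.08 with SE 0.04), and GLYMA_17G144100 rose (log2 fold change 0.30 with SE 0.05). The KEGG plant hormone pathway without the ethylene genes is not limited to genes downstream of ethylene. It had 132 of 361 lower (36.6%) and 104 higher (28.8%), with a median of -0.04. Its most abundant genes, GLYMA_15G062700 (-1.89) and GLYMA_15G179600 (-1.70), carry no ethylene term. GLYMA_15G179600 carries the wounding term and the term for regulation of jasmonate signalling. Leaf senescence, a process that ethylene promotes, had 1 of 6 lower (16.7%) and 2 higher (33.3%), with log2 fold changes of -0.13 for GLYMA_12G010000 (lower) and 0.67 for GLYMA_02G245300 (higher).

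Lists added after the annotation was seen held further regulators and enzymes. Of 3 genes with ACC synthase activity outside the ethylene set, GLYMA_05G108900 (log2 fold change -0.99 with SE 0.31) and GLYMA_17G158100 (log2 fold change -2.13 with SE 0.37) were lower at levels under 1.1 FPKM, and GLYMA_11G045600 was not tested. The groups of GLYMA_05G108900 overlapped, with 0.6167 FPKM in control replicate 3 and 0.6196 FPKM in MSN replicate 2. Of 10 non-receptor genes annotated to negative regulation of ethylene signalling, 4 were lower (40.0%, against 29.7% of all genes tested), 1 was higher (10.0%, against 29.6%) and 5 did not pass. They summed to 40.2, 39.8 and 40.9 FPKM in control and 40.5, 40.4 and 40.9 FPKM in MSN libraries. The higher gene was GLYMA_03G157200, at 9.05 ± 0.311 FPKM in control and 12.9 ± 0.363 FPKM in MSN (SD, n = 3; log2 fold change 0.50 with SE 0.05, edgeR adjusted p = 5.49e-08). Of 4 genes annotated to regulation of ethylene signalling with no direction, 3 were lower (75.0%), GLYMA_14G094100 most (log2 fold change -0.86 with SE 0.08). Transcript levels give neither the amount of ethylene nor the activity of the pathway.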

How the data were processed

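Libraries from 3 control and 3 MSN samples were grouped by their titles. The table deposited by the authors gives, per the file headers, a count and an FPKM value (fragments scaled for gene length and library size) in each library; the deposited counts are whole numbers without normalisation. The submitters' processing notes name DESeq2 1.34.0 and R 4.1.2 with no role. Aligner, counting program, strand setting, FPKM gene length, build and annotation were not given in the sources used here; coordinates are printed as the table has them. Of the 82 ethylene genes, 3 have a description of their own and 1 has a symbol.

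Tests on counts used the quasi-likelihood F test of edgeR 4.0.16 under R 4.3.3 (TMM scaling, filterByExpr with a minimum count of 10, 2-sided, Benjamini-Hochberg adjustment over 39203 genes, threshold 0.05, no fold threshold). TMM factors ran from 0.992 to 1.01. SE was derived from the F statistic. Levels are the authors' FPKM; log2 fold changes come from counts. The code was tested on simulated data. Small counts pile up at 4 and 8 (17.7 to 19.0% and 10.0 to 12.3% of counts from 1 to 12), so 1 event was taken as 4 counts and a group at 0 to allow 3 events, or 12 counts; such floors cover counting error only. Alternatives were other scalings, tests (DESeq2 1.42.0, limma 3.58.1 on log2 FPKM with a pseudocount of 0.1 or 1), no filter, counts divided by 4, the replicate block and each library left out.

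Named were, per role, all genes where 12 or fewer were tested, otherwise the 6 of highest mean FPKM and the 6 called genes of largest change without overlap; further genes were named after their values were seen. The genes and lists were chosen with earlier results of these data known.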

Additional observations from a re-analysis of the deposited data

How the results depend on the processing

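Across 14 other settings, the tested ethylene genes gave 7 to 9 higher and 49 to 55 lower calls. Asking for a sum of at least 600 counts left 5 higher, and a log2 fold threshold of 1 left 3 higher and 29 lower. Quantile normalisation left 1 higher synthesis gene, since GLYMA_15G112700 lost its call. Leaving out 1 library at a time gave 7 to 9 higher and 49 to 52 lower; 1 to 2 higher and 7 lower for synthesis, 0 higher and 9 lower for receptors, 6 to 7 higher and 30 to 33 lower for transcription factors, and 10640 to 11192 higher and 10830 to 11224 lower over all genes. Of 71 tested genes named in the text, 57 kept direction and call in all 14 settings.

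Direction turned only for genes that did not pass: GLYMA_02G006200 under quantile normalisation (-0.061) and over leave-one-out fits (-0.271 to 0.484), GLYMA_03G251700 (-0.006 to 0.124) and GLYMA_05G211700 (-0.108 to 0.386) over leave-one-out fits, and GLYMA_19G213100 under quantile normalisation (-0.142), on log2(FPKM + 0.1) (-0.010), with the replicate block (-0.008) and over leave-one-out fits (-0.261 to 0.157). The causes were not tested.

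Whether the replicate numbers pair the libraries stayed unsettled. Deviations of same-numbered libraries correlated weakly, at r = 0.0638, 0.0289 and 0.0802 over 30854 genes. Those of libraries with different numbers ran from -0.0793 to 0.0127, so every library correlated best with its own number, a hint from the data only. The replicate block gave 8 higher and 52 lower ethylene genes, and 11280 higher and 11461 lower over all genes. Counts divided by 4 gave 8 higher and 53 lower ethylene genes.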
